A study of Mus musculus with 42 samples.

Results

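Epiblast-like cells (EpiLCs) that over-express the splicing factor ISY1 were compared directly with EpiLCs that lack DGCR8, library against library at the same hour of differentiation. Both kinds of mouse embryonic stem cell (ESC) keep naive genes above their level in cells without Dox after leaving 2i/LIF medium, and the comparison asks in what the 2 conditions part. It covers 8 libraries of the 24 in the EpiLC table and of the 42 in the series. A group of 4 came from the KH2-ISY1 ESC line, whose Flag-tagged ISY1 is induced by doxycycline (Dox), kept with Dox for 24, 48, 72 and 96 h in medium for EpiLC induction. The other 4 came from a DGCR8 knockout ESC line (treatment not given) after the same hours in that medium, and cells returned from EpiLC to 2i/LIF were not included. The KH2-ISY1 line without Dox at those hours, and both lines in 2i/LIF at 0 h (KH2-ISY1 without Dox), are given beside the comparison as levels.

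The knockout and the KH2-ISY1 libraries come from different ESC lines, so a difference of line and one of DGCR8 cannot be told apart. No line without the transgene was given Dox in these libraries, so Dox and induced ISY1 cannot be told apart either. Each condition and hour has 1 library, and every value comes from cells in bulk, where fewer cells of a type and less RNA per cell cannot be told apart. The spread of the difference over the 4 hours stands in for replicate spread, so a gene whose difference turns with time counts against itself. Values are reads per gene divided by a size factor for each library (normalised reads). Differences are in log2(value + 1), knockout minus Dox, with the standard error (SE) of limma. A gene is called where its Benjamini-Hochberg adjusted p over all genes tested is below 0.05. Where the libraries of the conditions are said not to overlap, this describes the gene named. The share of all genes with such a separation was not counted.

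DGCR8 binds RNA and works with the nuclease Drosha, and the pair cuts primary microRNA transcripts into hairpins, so cells without DGCR8 lack nearly all canonical microRNAs. ISY1 belongs to the spliceosome's Prp19 complex and has been linked to the cutting of some primary microRNAs in mouse ESCs. In ESCs the miR-290 cluster gives the leading microRNAs, the miR-302 cluster shares its main seed, and both pair with mRNAs through that seed, bases 2 to 8. Naive cells resemble the epiblast before implantation and depend on KLF, ESRRB and NANOG factors, and EpiLCs resemble the epiblast after implantation and express Fgf5, Pou3f1 and Otx2.

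The mature sequences of the microRNAs whose targets are described first are printed from RefSeq (GRCm38.p6), 5′ to 3′, with the seed in capitals. The first 6 are of the miR-290 and miR-302 families, and the next 3 of the miR-17-92 and let-7 families.
miR-291a-3p: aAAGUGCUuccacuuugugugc
miR-294-3p: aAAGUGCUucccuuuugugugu
miR-295-3p: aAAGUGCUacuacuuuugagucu
miR-302b-3p: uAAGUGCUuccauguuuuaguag
miR-302d-3p: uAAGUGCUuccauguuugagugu
miR-290a-3p: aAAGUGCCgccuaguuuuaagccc
miR-17-5p: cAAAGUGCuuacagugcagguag
miR-20a-5p: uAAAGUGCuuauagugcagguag
let-7a-5p: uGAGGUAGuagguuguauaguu
The first 5 share the seed AAGUGCU, miR-290a-3p has AAGUGCC, and miR-17-5p and miR-20a-5p share AAAGUGC. The letters AAGUGC thus stand in 8 of these 9 seeds and not in that of let-7a-5p (GAGGUAG). On GRCm38.p6 miR-294-3p lies at chr7:3220691-3220712 (plus strand), and miR-302b-3p at chr3:127545275-127545297 (plus strand). The small RNA table has no library of the knockout and none of EpiLCs with Dox among those used here, and its entries do not name the arm. In KH2-ISY1 cells without Dox the miR-294 entry read 30198 in 2i/LIF at 0 h and 8764 in EpiLCs at 48 h, on a scale that is not stated. On that scale the miR-302b entry read 119.9 and 886 in those 2 libraries. The 11 entries of the miR-290 and miR-302 families held 74.9% of the summed values at 0 h and 41.5% at 48 h. Of the miR-302 entries miR-302b was the highest in both libraries, so that share is nearly all of the miR-290 cluster. The highest entry at 0 h was miR-292, at 184666, with 28633 at 48 h. At 48 h the highest was miR-293, at 36874, up from 23972 at 0 h. The sequences of these 2 are not among those printed, so the share is not that of the seed AAGUGCU.

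The libraries with Dox held an estimated 6.17 to 15.09 M (mega) reads and those of the knockout 11.78 to 38.85 M. Each estimate is the sum of a library's values divided by the fitted value of 1 read. The knockout libraries at 72 and 96 h (33.46 and 38.85 M) were far above the rest. The libraries with Dox at 72 and 96 h (15.09 and 11.95 M) were also deeper than those at 24 and 48 h (6.17 and 6.40 M), so that depth runs with hour in both conditions. A single read stood for 0.374 to 0.934 units with Dox and 0.142 to 0.467 in the knockout. The summed pluripotency markers Pou5f1, Sox2 and Sall4 ranged from 9241 to 14350 with Dox and from 10750 to 17810 in the knockout, so the pluripotent cells the labels name are seen in all 8. Fibroblast feeder markers summed to 26.2 to 56.1 with Dox and 20.2 to 42 in the knockout, from the 3 of 8 markers in the table, and without Dox to 42.5 to 154.5. Mesoderm markers stayed at or below 5.7 in all 8 libraries.

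The manipulated genes differed as labelled. Isy1 read 356, 346, 513 and 459.5 in the knockout and 3038, 912, 1109 and 708 with Dox at 24, 48, 72 and 96 h. The knockout values were near those of the line without Dox (423, 396, 558 and 418), and the induced level, which includes the transgene's reads, was highest at 24 h. Isy1 was thus lower in the knockout, by a log2 difference of −1.55 ± 0.35 (adjusted p = 0.0134). Without the 48 h pair the adjusted p was 0.0505, and the hourly differences were −3.09, −1.40, −1.11 and −0.62. Dgcr8 read 41.8, 42.1, 44.5 and 36.8 in the knockout and 156, 59.6, 205 and 158 with Dox. Every knockout library was below every Dox library, with a difference of −1.66 ± 0.28 (adjusted p = 0.00503). The Dgcr8 reads that remain in the knockout cannot be placed in or outside the deleted stretch from gene values.

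Of 16150 genes tested, 5358 (33.2%) were called, 2260 (14.0%) higher and 3098 (19.2%) lower in the knockout, and 2168 of them differed at least 2-fold. The shares of 14.0% and 19.2% are the background of the counts given below for each gene list. The unadjusted p was below 0.05 for 7350 genes. The median of all genes was −0.08, and another scaling of the libraries turns the split: median-ratio rescaling moved that median to 0.005 and gave 2793 higher and 2592 lower, and TMM-like rescaling gave 2831 and 2565. Among the called genes 5246 had the same sign at all 4 hours, and among all 16150 tested 8251 had. The call itself rests on the spread over these hours, so the first count largely follows from it. With the 72 h pair left out 3030 genes were called (1407 higher, 1623 lower), and with the 24 h pair left out 3885 (2007 lower). With hour left out of the fit 3185 were called, of which 3183 were also called with it. The level without Dox lay nearer the Dox level than the knockout level in 84.4% of the called genes (71.5% of all tested), and in 836 called genes it lay nearer the knockout. The sign of the difference was that of the knockout minus no-Dox difference at 0 h, before differentiation, in 88.5% of the called genes and 66.8% of the others. The no-Dox values at 24 to 96 h come from the line that received Dox, so the first of these shares sets 2 conditions of 1 line against 1 of another.

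Targets of the miR-290 and miR-302 families, from a list of 16 genes reported as such in ESCs, had the highest median difference of the 3 lists of microRNA targets. A total of 9 of 16 were called, each of them higher in the knockout, where 14.0% of all genes were called higher. The list's median difference was 0.71 beside −0.08 over all genes. The members were higher in the knockout in 12, 13, 12 and 14 of 16 cases at the 4 hours. Against the line without Dox, which the 2 conditions share as a control, the list's median was 1.30 for the knockout and 0.27 for Dox, and at 0 h it was 1.02 for the knockout.

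Lats2, a kinase of the Hippo pathway, had 434, 327, 293 and 277 normalised reads in the knockout at the 4 hours, against 94.4, 75.4, 52.8 and 49.8 with Dox and 66.4, 75.2, 66.5 and 87.2 without. The knockout values did not overlap with either set of the KH2-ISY1 line, and the difference was 2.30 ± 0.13 (adjusted p = 0.000212). Casp2, a caspase of the stress-induced death pathway, read 896, 933, 1266 and 1321 in the knockout and 211, 213, 214 and 194 with Dox, and 197, 217, 236 and 231 without it. Its knockout level was more than 4-fold that with Dox at every hour, a log2 difference of 2.38 ± 0.14 (adjusted p = 0.000212). Rbl2 read 385, 328, 209.5 and 163 in the knockout and 118, 153, 93.6 and 66.1 with Dox, and this retinoblastoma-like repressor of G1 genes was higher by 1.31 ± 0.15. Its values were lowest at 96 h in both conditions, and each knockout library stayed above the Dox library of its hour.

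The Nodal inhibitors Lefty1 and Lefty2 differed most at 48 h. Lefty1 read 949, 4992, 12590 and 11098 in the knockout and 150.5, 34.2, 3758 and 2207 with Dox. The Dox library at 48 h was the low point of that set, and the library without Dox had 158 at 48 h and 3977 at 72 h. The difference was 3.47 ± 0.78 (adjusted p = 0.0137), and 0.055 without the 24 h pair. Lefty2 read 3230.4, 7326, 3625 and 2751 in the knockout and 996, 368, 2148 and 1357 with Dox, a difference of 1.95 ± 0.52 (adjusted p = 0.0248, and 0.0903 without the 24 h pair). Ash1l, a histone methyltransferase, differed by 1.40 ± 0.11, Ei24, a p53-induced gene of autophagy, by 0.87 ± 0.13, Cfl2, an actin-severing cofilin, by 0.79 ± 0.17, and Mbd2, a reader of methylated DNA, by 0.44 ± 0.14. The call of Mbd2 was lost without each of the 4 hours in turn (adjusted p = 0.0639, 0.0722, 0.181 and 0.0946).

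The 7 members not called were Rela (0.59 ± 0.22), Nr2f2 (0.64 ± 0.37), Tgfbr2 (0.37 ± 0.30), Akt1 (0.02 ± 0.15), Cdkn1a (−0.15 ± 0.14), Rhoc (−0.21 ± 0.49) and Dkk1 (−1.01 ± 0.71). Cdkn1a, the cell cycle inhibitor p21, read 499.6, 739.7, 936 and 742 in the knockout and 787, 668, 955 and 766 with Dox, so the ranges overlapped, while at 0 h the knockout had 2990.3 and the line without Dox 1478. Rhoc, a small GTPase, read 46, 85, 184 and 289.8 in the knockout and 137, 235, 85 and 136 with Dox. It lay below Dox at 24 and 48 h and above at 72 and 96 h. Casp2 lies on chromosome 6 and Lefty1 and Lefty2 on chromosome 1, where the knockout's levels were raised in general (given at the end). The part of this in their differences was not tested.

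**Figure D1:**
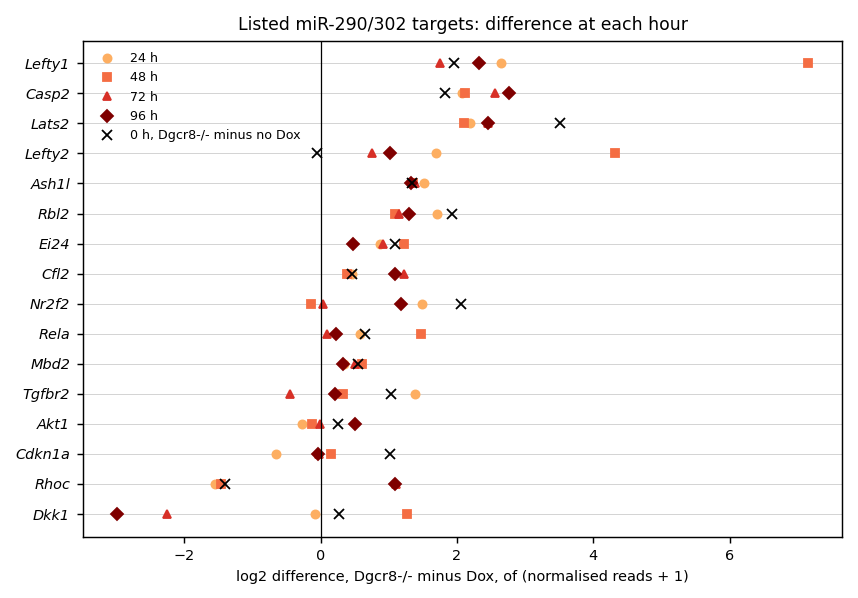
Log2 difference (knockout minus Dox, of normalised reads + 1, x axis) of the 16 listed miR-290 and miR-302 targets at 24, 48, 72 and 96 h, 1 pair of libraries per point, with the knockout minus no-Dox difference at 0 h as crosses. Lefty1 to Rbl2 lie right of 0 at all 4 hours, Lefty1 and Lefty2 reach furthest at 48 h, and Rhoc and Dkk1 change side.

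Of 12 miR-17-92 targets 4 were higher and 1 lower, beside 14.0% and 19.2% of all genes, with a median of 0.34. Mylip, an E3 ubiquitin ligase, differed by 1.15 ± 0.26, Phlpp1, a phosphatase of AKT, by 0.71 ± 0.19 and E2f1, the G1/S factor, by 0.44 ± 0.12. Thbs1, a matrix glycoprotein, was lower (−0.59 ± 0.17). Without 1 hour's pair the call was lost for Mylip (24 h, 0.0643), Phlpp1 (24 h, 0.0913, and 48 h, 0.087), E2f1 (72 h, 0.147, and 96 h, 0.114) and Thbs1 (24 h, 0.0831, 72 h, 0.117, and 96 h, 0.146). Of 12 let-7 targets 4 were higher and 1 lower, with a median of 0.24. Lin28b read 259, 351, 806 and 883 in the knockout and 59.8, 97.4, 313 and 408 with Dox. This let-7 inhibitor had its highest values at 96 h in both and was higher in the knockout at each hour, by 1.60 ± 0.17 (adjusted p = 0.00105). Its paralogue Lin28a, not called (−1.12 ± 0.42), read 266, 621, 2271 and 3396 in the knockout and 1618, 2188, 2668 and 3024 with Dox, so the knockout was far lower at 24 h and above Dox at 96 h. Mycn, a proto-oncogene, was higher by 1.38 ± 0.28, Ccnd1, cyclin D1, by 1.51 ± 0.30 and the ubiquitin ligase Trim71 by 0.47 ± 0.13, and the chromatin protein Hmga1 was lower (−0.50 ± 0.09).

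Of 17 G1 cyclins, kinases and inhibitors 7 were higher and 2 lower in the knockout, beside 14.0% and 19.2% of all genes, with a median of −0.10. Ccnd1 read 2792, 2780.4, 2575 and 1683 in the knockout and 1181, 391, 1085 and 1005 with Dox, and Ccnd2 read 172, 144, 132 and 196 in the knockout and 51.4, 27.2, 79 and 97.7 with Dox. Both D cyclins were higher in the knockout at every hour, Ccnd2 by 1.45 ± 0.27. Their partner kinase Cdk6 was also higher (1.04 ± 0.20), as was the inhibitor Cdkn1b, p27 (1.04 ± 0.13). Cyclin E1 (Ccne1) was lower (−0.60 ± 0.15) and cyclin E2 (Ccne2) higher by 0.91 ± 0.20. Rbl2 is in this list too, and its paralogue Rbl1 was higher by 0.38 ± 0.11. The imprinted inhibitor Cdkn1c was lower (−0.86 ± 0.28).

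Among 16 genes of the microRNA pathway 5 were higher and 1, Dgcr8, lower, beside 14.0% and 19.2% of all genes, with a median of 0.11. Ago1 read 2163, 1751, 2564 and 3004 in the knockout and 742, 654, 892 and 1026 with Dox. This Argonaute was higher in the knockout at each hour with little spread (1.51 ± 0.09, adjusted p = 0.000212), and the line without Dox had 718, 804, 924 and 866. Of the GW182 scaffolds that Argonautes recruit, Tnrc6a differed by 1.44 ± 0.12, Tnrc6b by 1.23 ± 0.12 and Tnrc6c by 0.66 ± 0.13. Dicer1, which cuts the hairpins, differed by 0.58 ± 0.09. Drosha (0.13 ± 0.09), the exporter Xpo5 (0.00 ± 0.09) and Ago2 (0.06 ± 0.14) were not called. Of 14 genes of the Prp19 complex and its neighbours 2 were higher and 3 lower, Isy1 included, with a median of −0.16. The share called was near the 33.2% of all genes. Plrg1 was higher by 0.75 ± 0.13 and Cdc5l by 0.37 ± 0.09, both core subunits, and the spliceosome proteins Xab2 (−0.41 ± 0.11) and Rbm22 (−0.34 ± 0.11) were lower. The calls of Cdc5l and Xab2 were lost when 72 h was left out (0.0899 and 0.149) and when 96 h was (0.0657 and 0.133).

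The naive genes split in both directions. Of 20 tested 6 were higher and 3 lower, beside 14.0% and 19.2% of all genes, with a median of 0.05. Against the shared line without Dox the list's median was 1.38 for the knockout and 1.39 for Dox. The order of the conditions differed by hour: the list's median difference was 0.72 at 24 h, 0.22 at 48 h, −0.09 at 72 h and −0.24 at 96 h, and 14, 12, 8 and 9 of the 20 genes were higher in the knockout.

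Klf2 set the conditions apart most. Klf2 read 1646, 1503, 1057 and 636 in the knockout and 173, 38.6, 177 and 131 with Dox, while the line without Dox had 139, 22.1, 85.5 and 17.9. This factor, a Krüppel-like regulator of naive self-renewal, was thus more than 4-fold higher in the knockout at each hour (3.33 ± 0.43, adjusted p = 0.00178), and at 0 h the knockout had 3157 against 988. Klf5, its relative, differed in the other direction. Klf5 read 638, 185, 78.1 and 67.8 in the knockout and 848, 635, 589.5 and 591 with Dox. The Dox libraries lay close together from 48 h on and the knockout was lowest at 96 h, a difference of −2.05 ± 0.40 (adjusted p = 0.00817), while the line without Dox read 642, 247, 218 and 217, between the 2 from 48 h on. The third KLF factor, Klf4, read 596, 73.8, 42.1 and 22.2 in the knockout and 174, 93.9, 110.5 and 48.4 with Dox, and its difference over the course was not called (−0.26 ± 0.47).

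The other naive genes called higher in the knockout were Prdm14, Nr5a2, Nanog, Tdh and Pecam1. Prdm14 read 529, 178, 58.9 and 45.9 in the knockout and 62.6, 14, 39 and 24.4 with Dox, and this repressor of differentiation differed by 2.02 ± 0.50 (adjusted p = 0.0187). Nr5a2 read 401, 158, 75.7 and 35.1 in the knockout and 143, 51.8, 39.3 and 33.9 with Dox, so this nuclear receptor was nearly level between them at 96 h (1.01 ± 0.26, adjusted p = 0.0226). The calls of both were lost when 24 h was left out (0.0987 and 0.104) and when 48 h was (0.0697 and 0.084). Nanog read 2347, 991, 614 and 625 in the knockout and 1137, 590.4, 437 and 516 with Dox, a difference of 0.64 ± 0.14 (adjusted p = 0.0121). Tdh, the threonine dehydrogenase of mouse ESCs, differed by 1.48 ± 0.29 and the adhesion molecule Pecam1 by 0.98 ± 0.14. Prdm14 and Nr5a2 lie on chromosome 1 and Nanog on chromosome 6, and the part of the raised levels there in their differences was not tested.

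Lower in the knockout, besides Klf5, were Tcl1, a co-activator of AKT, and the homeobox gene Gbx2. Tcl1 read 158, 46.3, 15.7 and 9.5 in the knockout and 219.6, 66.7, 39 and 19 with Dox, a difference of −0.80 ± 0.20, whose adjusted p of 0.0213 was 0.11 when 72 h was left out and 0.053 when 96 h was. Gbx2 read 57.4, 25.2, 54.5 and 71 in the knockout and 149, 64, 60.3 and 98.6 with Dox (−0.82 ± 0.24, adjusted p = 0.0353, or 0.133 without 24 h and 0.112 without 48 h).

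The 11 naive genes not called include some whose courses crossed. Tbx3 read 254, 25.2, 10.3 and 2.3 in the knockout and 147, 63.2, 55.4 and 22.2 with Dox, and Jam2 read 930.4, 121, 9.8 and 3.4 in the knockout and 434, 41.2, 148 and 59.3 with Dox. Both were higher in the knockout at 24 h and far lower at 96 h, at which hour the knockout's level of Tbx3 was near that without Dox (54.5, 8, 5.5 and 3.4 over the 4 hours). Esrrb read 1739, 744, 354 and 180.1 in the knockout and 1222, 901, 484 and 280.5 with Dox, and this core naive receptor likewise started above Dox in the knockout and ended below it (−0.21 ± 0.18). Without the 24 h pair Tbx3, Klf4 and Esrrb were called lower in the knockout (adjusted p = 0.0146, 0.0467 and 0.0459). Zfp42, also known as Rex1, differed by −0.53 ± 0.22, and without the 48 h pair it was called lower (adjusted p = 0.0138). Dppa5a read 14803, 16692, 6776 and 4989 in the knockout and 16453, 16682, 6682 and 4582 with Dox, nearly level at 48 and 72 h. Nr0b1 differed by −0.14 ± 0.22, Tfcp2l1 by 0.17 ± 0.33, Tet2 by 0.10 ± 0.18, Dppa3 by 0.24 ± 0.22 and Fgf4 by 0.36 ± 0.20.

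**Figure D2:**
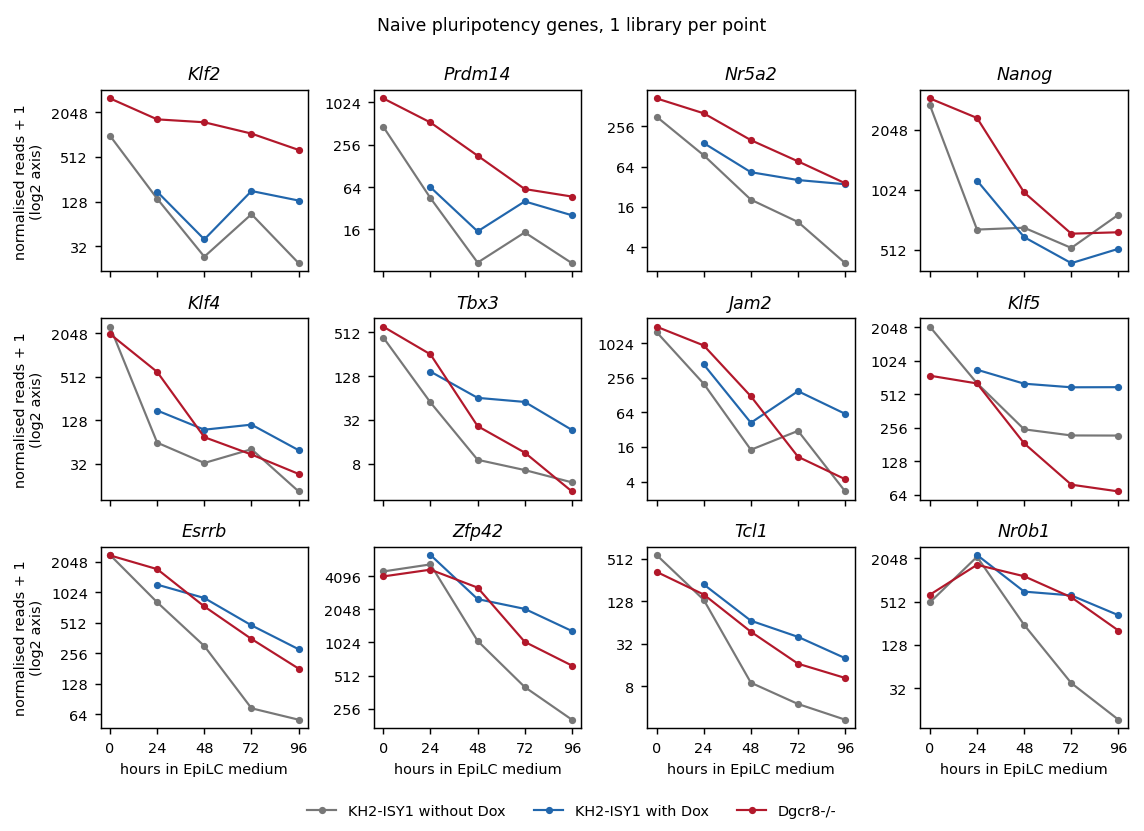
Normalised reads + 1 (log2 axis) of 12 naive genes against hours in EpiLC medium, 1 library per point, for KH2-ISY1 without Dox (grey), with Dox (blue) and the knockout (red). The knockout lies above Dox throughout for Klf2 and Prdm14 and below it for Klf5, and the 2 cross for Klf4, Tbx3 and Jam2.

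Of 9 core pluripotency genes 2 were called, both higher in the knockout, and the median was 0.11. Sox2 read 3009, 2603, 1722 and 1481 in the knockout and 1843, 1193, 986 and 801 with Dox, and 1674, 974, 273 and 152 without Dox. All 3 sets were highest at 24 h, the knockout lay above Dox at each hour, and it exceeded Dox by 0.88 ± 0.10 (adjusted p = 0.00135). Zfp281, a zinc finger factor of the exit from the naive state, differed by 0.72 ± 0.10, and Pou5f1 by 0.14 ± 0.09, not called.

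Of 16 formative genes tested, those that EpiLCs switch on, 3 were higher and 2 lower in the knockout, beside 14.0% and 19.2% of all genes, with a median of 0.16. The knockout was higher in 4 of 16 at 24 h and in 10, 10 and 12 at the later hours, and the hourly medians were −0.48, 0.29, 0.22 and 0.57. Fgf5, the standard EpiLC marker, read 5.9, 61.7, 123 and 208 in the knockout and 43.9, 117, 241 and 289 with Dox. Without Dox it read 93.6, 482, 476 and 449. It was lower in the knockout at each hour, most at 24 h (−1.26 ± 0.34, adjusted p = 0.0255, or 0.0619 without the 48 h pair).

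Otx2, the homeobox factor of the formative epiblast, differed in the other direction. Otx2 read 431, 778, 406 and 479 in the knockout and 235, 410.5, 87.6 and 66.1 with Dox. The Dox libraries at 72 and 96 h were the lowest of the 8, a difference of 1.71 ± 0.32 (adjusted p = 0.00705), and without Dox the values were 336, 523, 155 and 463. Fgf15 read 72.2, 471, 676 and 731 in the knockout and 36.4, 22.8, 99.6 and 103 with Dox, and this FGF ligand was higher in the knockout by 2.71 ± 0.44 (adjusted p = 0.00418). Without Dox Fgf15 read 104.5, 163, 383 and 236, above the Dox library of each hour. The Wnt antagonist Sfrp2 was higher by 0.89 ± 0.17. Against the line without Dox, Sfrp2 differed by −0.41 in the knockout and −1.29 with Dox. The kinase gene Pim2 was lower (−0.87 ± 0.18). Not called were Pou3f1, at 21.9, 291, 639.5 and 709.8 in the knockout and 173, 257, 721 and 709 with Dox, and the methyltransferase gene Dnmt3b (0.50 ± 0.19). Pou3f1 lagged in the knockout at 24 h and was level with Dox at 96 h.

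**Figure D3:**
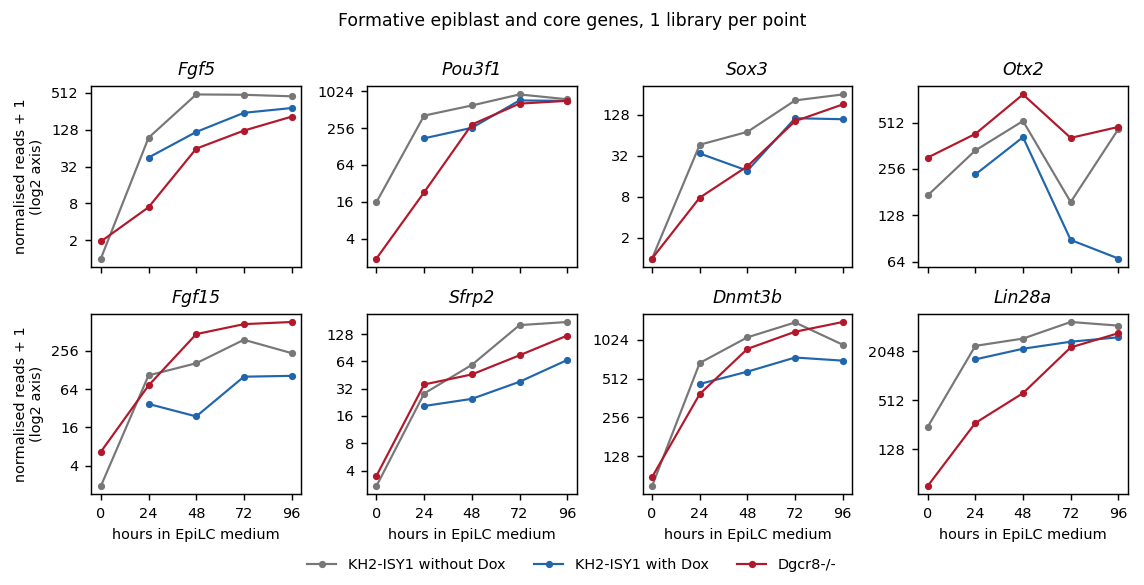
Normalised reads + 1 (log2 axis) of 7 formative genes and Lin28a against hours in EpiLC medium, 1 library per point, for KH2-ISY1 without Dox (grey), with Dox (blue) and the knockout (red). Fgf5 is lowest in the knockout at 24 to 96 h, Otx2 and Fgf15 are highest there from 48 h on, and Pou3f1 and Lin28a start low in the knockout and meet the Dox course.

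Of 13 genes that MEK and ERK signalling induces, many of them its feedback inhibitors, 6 were called, each lower in the knockout. Over all genes 19.2% were called lower, and the list's median was −0.63. Spry2, an inhibitor of receptor tyrosine kinase signalling, read 229, 230.4, 274 and 344 in the knockout and 1038, 877, 841 and 941 with Dox. No knockout value reached the Dox range, and the difference was −1.79 ± 0.14 (adjusted p = 0.000386). Spry1 differed by −1.64 ± 0.27, the ERK phosphatases Dusp4 by −1.21 ± 0.13 and Dusp5 by −0.89 ± 0.16, the ETS factor Etv4 by −1.29 ± 0.15, and Fos, at or below 2 in each knockout library, by −1.79 ± 0.39. Dusp6 (−0.44 ± 0.27), Spry4 (−0.28 ± 0.21) and Etv5 (0.06 ± 0.12) were not called. In the LIF pathway 1 of 10 genes was called, the receptor subunit Il6st (gp130), higher in the knockout. Il6st read 616, 458, 342 and 310.1 in the knockout and 117, 125, 96.6 and 114 with Dox, a difference of 1.87 ± 0.17 (adjusted p = 0.000551), with 103, 89.4, 93 and 128 without Dox. Lifr (0.57 ± 0.19), Stat3 (−0.41 ± 0.28) and Socs3 (0.08 ± 0.44) were not called.

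Of 8 Wnt targets 2 were higher and 2 lower, with a median of −0.08. Axin2, the common feedback target, read 43, 19.6, 7.7 and 9.7 in the knockout and 102, 63.2, 41.9 and 38.9 with Dox (−1.77 ± 0.23, adjusted p = 0.00185). The secreted Wnt deacylase Notum read 590.3, 456, 243 and 87.8 in the knockout and 87.9, 17.5, 46.8 and 24.9 with Dox (2.87 ± 0.41, adjusted p = 0.00247). These 2 feedback inhibitors thus differed in opposite directions. Nkd1 was lower (−1.46 ± 0.37, adjusted p = 0.0207, or 0.0682 without 24 h and 0.0791 without 48 h), and Ccnd1 is the other one that was higher. Of 13 Nodal and TGF-beta genes 4 were higher and 1 lower, beside 14.0% and 19.2% of all genes, with a median of 0.37. Besides Lefty1 and Lefty2 the ligand Gdf3 was higher by 1.07 ± 0.15 and the receptor Tgfbr1 by 0.75 ± 0.11, and the SMAD cofactor Foxh1 was lower (−0.65 ± 0.10). Nodal itself, not called, read 648, 442, 608 and 499 in the knockout and 573, 349, 1043 and 895 with Dox. Gdf3 lies on chromosome 6, and the part of the raised levels there was not tested.

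Among markers of other lineages, 3 of 11 genes of primitive and visceral endoderm were called, each lower in the knockout, beside 19.2% of all genes called lower. Gata6 read 0.4, 0.5, 1.1 and 1 in the knockout and 15, 20.2, 20.2 and 10.9 with Dox, and Sox7 read 8, 1.9, 2.9 and 2.6 in the knockout and 70.1, 17.5, 27 and 35.3 with Dox. No knockout library reached the lowest Dox library in either factor (−3.31 ± 0.33 and −2.96 ± 0.25). The summed endoderm markers were 50 to 100.1 with Dox, 12.5 to 26.5 in the knockout and 7.8 to 37.3 without Dox, with Sox17 and Afp not in the table, and their part in other differences was not tested. The laminin gene Lama1 was lower (−1.61 ± 0.29). Of 5 primitive streak genes Eomes (−1.96 ± 0.29) and Wnt3 (−1.29 ± 0.36) were lower and Evx1 (1.80 ± 0.40) higher. The other members, Mixl1 (0.85 ± 0.29) and Gsc (0.85 ± 0.36), were above Dox at all 4 hours but not called, and the list's median was 0.85. The call of Wnt3 was lost without 24, 72 or 96 h (0.0783, 0.13 and 0.137) and that of Evx1 without 24 h (0.0635). Of 6 neuroectoderm genes 1 was called, the neuronal tubulin Tubb3 (1.44 ± 0.20). Sox1, an early neural factor, read 13.5, 22, 158 and 369 in the knockout and 72, 51.8, 132 and 276 with Dox. The knockout was lower at 24 and 48 h and higher at 72 and 96 h (−0.71 ± 0.43, not called).

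Among 10 genes of cell adhesion and epithelial to mesenchymal transition 5 were higher and 1 lower in the knockout, with a median of 0.66. Vim read 1750.2, 1356, 1156 and 813 in the knockout and 455, 220.2, 326 and 278 with Dox, and the line without Dox had 394, 193, 168 and 159. The intermediate filament gene was higher in the knockout at every hour, by 1.98 ± 0.17 (adjusted p = 0.000528). N-cadherin (Cdh2) was higher by 2.49 ± 0.18, the repressor Snai1 by 2.05 ± 0.30 and fibronectin (Fn1) by 1.36 ± 0.10. The epithelial adhesion gene Epcam was lower (−0.69 ± 0.17), E-cadherin (Cdh1) was not called (−0.43 ± 0.15), and the keratin Krt8 was higher by 0.64 ± 0.12. Of 10 contractile and YAP or SRF targets Tagln (−0.96 ± 0.29) and Cnn2 (−0.60 ± 0.17) were lower, and both calls were lost without 48, 72 or 96 h (0.121, 0.1 and 0.117, and 0.0617, 0.0639 and 0.0792). Of 9 muscle and heart genes the methyltransferase Smyd1 (4.30 ± 0.44) and titin, Ttn (2.57 ± 0.26), were higher and desmin, Des (−3.17 ± 0.56), was lower. Des read 4.2, 6.1, 14.5 and 41.2 in the knockout and 109, 188, 83.1 and 89.6 with Dox. Of 7 trophoblast genes Tfap2c (1.66 ± 0.51) was higher and Gata3 (−1.51 ± 0.41) lower, and both calls were lost without the 48 h pair (0.0783 and 0.102), that of Gata3 also without the 24 h pair (0.112). The 4 feeder fibroblast genes tested, none called, differed by −0.64 ± 0.32 (Col1a1), −1.28 ± 0.51 (Col1a2), −0.16 ± 0.38 (Thy1) and 0.53 ± 0.21 (Fbn1), and limma's unadjusted p was below 0.05 for Col1a2 and Fbn1.

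The 12 called genes with the largest differences upward and the same sign at each hour were led by A2m and Trh. Trh read 3978, 2220.1, 1751 and 3266 in the knockout and 171, 47.4, 69.3 and 129 with Dox. Thyrotropin-releasing hormone was thus more than 20-fold higher in the knockout at each hour (4.84 ± 0.17, adjusted p = 3e-05). It was so before differentiation too, with 3409 in the knockout and 145 without Dox at 0 h. A2m, a protease inhibitor of plasma, differed by 5.08 ± 0.48, and its 12 reads over the 4 Dox libraries give a ratio of 44.9 with an exact 95% counting interval of 25.6 to 87.1. Nlrp12, a NOD-like receptor, read 2475, 3057, 1931 and 1809.9 in the knockout and 191, 73.7, 124 and 121 with Dox (4.22 ± 0.26). The other 9 were Efhd1 (4.73 ± 0.36), Smyd1, Apln, the ligand apelin (4.29 ± 0.56), Ccdc187 (3.61 ± 0.46), Lrrn2 (3.60 ± 0.80), Tril (3.59 ± 0.44), Lefty1, Hs3st3a1 (3.44 ± 0.51) and Olfml3 (3.43 ± 0.45). The call of Lrrn2 was lost without 24 h (0.0772). Of the 12, A2m, Trh, Smyd1 and Tril lie on chromosome 6 and Efhd1, Lrrn2 and Lefty1 on chromosome 1.

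The largest falls were nearly all of 1 family. Of the 12 called genes with the largest differences downward 10 were members or a pseudogene of Xlr, a cluster of X-linked lymphocyte-regulated genes with near-identical copies, so that reads could be split between them in counting and single members are uncertain. All 9 of the listed Xlr3, Xlr4 and Xlr5 genes tested were called lower in the knockout, with a median of −4.98, where 19.2% of all genes were called lower. These 9 are all among the 12 largest falls, so the count adds nothing to that choice. With reads that could be shared, the copies are not separate cases. Xlr3a read 3.4, 6.1, 4.6 and 4.7 in the knockout and 166, 339.5, 131 and 129 with Dox, with 174, 289, 132 and 117 without Dox. Xlr5b read 0, 0.5, 0 and 0 in the knockout and 116, 177, 139.7 and 99.1 with Dox, with 113, 163, 57 and 36.6 without Dox. Every knockout library lay below every KH2-ISY1 library in both genes, with differences of −4.98 ± 0.25 and −6.89 ± 0.24 (adjusted p = 0.000112 and 3e-05). Both genes were picked as large falls of the same sign at each hour, so their separation from Dox was likely in advance. Xlr5b had 1 read over the 4 knockout libraries, a ratio of 2250 in favour of Dox with an interval of 403 to 88900. The pseudogene Xlr5e-ps had 0 reads in the knockout and was at least 128-fold higher with Dox, taking 3 reads over the group as the floor. At 0 h the knockout also lay low, with 2.5 for Xlr3a against 87 without Dox. Outside the family were Dnajc5g (−5.76 ± 0.31), a DNAJ gene on chromosome 5, and DXBay18 (−5.04 ± 0.30) on the X.

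The promoters of Xlr3b and Xlr5b, from 250 bases before to 50 after the start in RefSeq (GRCm38.p6), are printed since this family carries the largest falls, with each CG in capitals, the pair of bases that DNA methylation acts on.
Xlr3b, chrX:73191929-73192228, plus strand: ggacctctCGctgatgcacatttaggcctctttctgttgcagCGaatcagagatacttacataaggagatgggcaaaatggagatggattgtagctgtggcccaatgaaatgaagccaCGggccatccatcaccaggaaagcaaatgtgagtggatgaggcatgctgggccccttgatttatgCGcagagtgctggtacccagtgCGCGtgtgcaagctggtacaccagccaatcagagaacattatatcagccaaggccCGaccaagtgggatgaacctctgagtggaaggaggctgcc
Xlr5b, chrX:73148591-73148890, plus strand: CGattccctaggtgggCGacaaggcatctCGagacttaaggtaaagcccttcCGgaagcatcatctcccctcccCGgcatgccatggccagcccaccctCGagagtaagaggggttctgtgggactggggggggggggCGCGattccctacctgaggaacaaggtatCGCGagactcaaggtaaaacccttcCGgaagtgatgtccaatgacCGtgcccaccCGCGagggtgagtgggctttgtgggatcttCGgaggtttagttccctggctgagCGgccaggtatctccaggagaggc
Xlr3b holds 7 CG and Xlr5b 16 in these 300 bases, the same count on both strands. The median over the table's 27025 promoters of this length was 7, and 52.3% and 33.5% of them hold as many or more. Searched for shared letters, the Xlr5a and Xlr5b promoters share a run of 255 identical bases, Xlr4b and Xlr4c one of 169, and Xlr3b and Xlr3c one of 119. Xlr5c, which was lower too (−6.58 ± 0.31), shares a run of at most 9 bases with either of the other Xlr5 promoters and holds 1 CG.

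**Figure D4:**
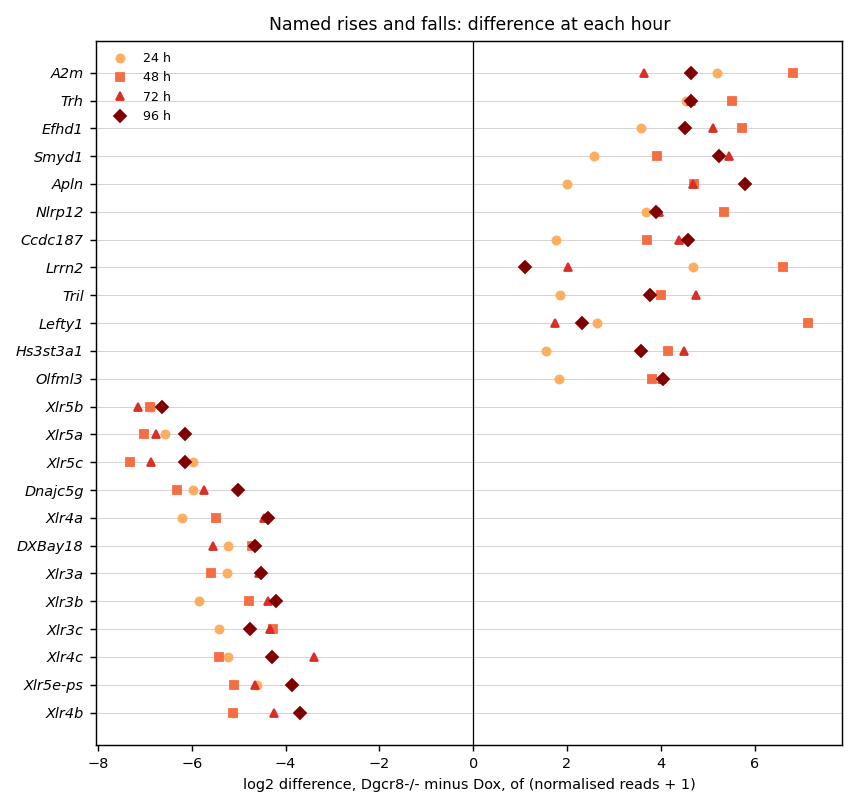
Log2 difference (knockout minus Dox, of normalised reads + 1, x axis) at 24, 48, 72 and 96 h for the 12 largest rises and the 12 largest falls, 1 pair of libraries per point. The falls lie between −7.31 (Xlr5c at 48 h) and −3.39 (Xlr4c at 72 h), and of the rises Lefty1 and Lrrn2 spread most over the hours.

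Of 11 imprinted genes tested 1 was higher and 8 were lower in the knockout, with a median of −1.06. Peg10 read 281, 137, 197 and 213 in the knockout and 1110.3, 1990.4, 2219.9 and 2135 with Dox, with 1031, 1489, 1225 and 855 without Dox. This retrotransposon-derived paternal gene was lower at each hour (−3.16 ± 0.27, adjusted p = 0.000531), on a chromosome, 6, whose other genes tended higher. Peg3 read 370, 308, 441 and 438 in the knockout and 1298, 2305, 2738 and 3078 with Dox, and this zinc finger gene differed by −2.54 ± 0.18. Phlda2 was lower (−2.21 ± 0.22), as were the adaptor Grb10 (−1.90 ± 0.35), Impact (−1.06 ± 0.13), Snrpn (−1.02 ± 0.19) and the growth factor Igf2 (−1.18 ± 0.33). At 0 h Peg3 read 221 in the knockout and 203 without Dox, and Peg10 88.4 and 37.4, so neither was lower in the knockout library at 0 h. Nnat, neuronatin, was higher (2.15 ± 0.41). Against the line without Dox, Nnat differed by 0.28 in the knockout and −1.86 with Dox.

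Germline genes gave 2 higher and 4 lower of 12. Dazl read 67.1, 36, 36.4 and 21.4 in the knockout and 444, 236, 161 and 83.3 with Dox, and without Dox this RNA-binding germ cell gene read 366, 128, 40.5 and 18.7 (−2.35 ± 0.19). The transcription factor Taf7l was lower (−2.89 ± 0.29), as were the meiotic genes Sycp1 (−1.68 ± 0.26) and Sycp3 (−1.12 ± 0.33), while Nanos3 was higher by 1.54 ± 0.34 and Ddx4 by 0.71 ± 0.21. Of 7 genes of the 2-cell-like state 3 were called, each lower, with a median of −1.45. Against the line without Dox the list's median was −0.08 for the knockout and 1.38 for Dox. Zscan4c read 0, 0.5, 72.3 and 124 in the knockout, 2.8, 21.9, 163 and 133 with Dox and 0.9, 8, 36 and 28.5 without. The knockout and Dox both had the transcripts of this near-identical family at 72 and 96 h. Their gap was widest at 48 h, when the knockout had about 1 read. Its call, and those of Zscan4b and Tcstv1, were lost without the 48 h pair (0.0835, 0.0837 and 0.0625) and the 72 h pair (0.0536, 0.0662 and 0.0851), and the first 2 without the 24 h pair (0.134 and 0.106). Of 6 sex-linked genes 3 were called, each lower in the knockout: the Y-linked Eif2s3y and Uty (−1.01 ± 0.31, adjusted p = 0.0415, or 0.141 without 24 h and 0.11 without 48 h) and the X-linked Eif2s3x (−0.51 ± 0.09). Eif2s3y read 18.1, 54.2, 148 and 158 in the knockout and 188, 188, 210.1 and 206 with Dox. The knockout read 16.3 at 0 h, so its values at 72 and 96 h were far above those at 0 and 24 h, while the Dox values lay within a narrow range (−1.49 ± 0.45, adjusted p = 0.0372, or 0.0854 without 24 h and 0.128 without 48 h).

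Of 13 targets of p53 5 were called, each lower in the knockout, beside 33.2% of all genes called and 19.2% called lower, with a median of −0.21. Mdm2, the ubiquitin ligase of p53, read 146, 166, 248 and 142 in the knockout, 428, 373, 452 and 372 with Dox and 251, 251, 246 and 144 without. The Dox libraries were the ones that stood apart, above both others, and the difference was −1.23 ± 0.14 (adjusted p = 0.00121). The stress cytokine Gdf15 was lower (−2.01 ± 0.19), and it too was highest with Dox (82.2, 80.7, 75.3 and 71.9 against 40.9, 55.8, 18 and 6.4 without). Trp53inp1 differed by −0.47 ± 0.10, Zmat3 by −0.59 ± 0.10 and the death gene Bbc3, Puma, by −0.61 ± 0.14, whose call was lost without 24 h (0.0517) and 72 h (0.0574).

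Of 17 interferon response genes 5 were higher and 1 lower, with a median of 0.72. The guanylate-binding gene Gbp4 read 84.8, 108, 90.5 and 56.8 in the knockout and 4.7, 2.6, 24.3 and 13.1 with Dox (3.18 ± 0.50), with no overlap of the 2 sets. Samd9l read 210.1, 77.1, 49.8 and 26.3 in the knockout and 15, 0.9, 16.9 and 13.1 with Dox (2.89 ± 0.67, adjusted p = 0.015, or 0.0832 without 24 h). Igtp was higher by 1.41 ± 0.22 and Ifit1 by 1.30 ± 0.32, and Bst2, tetherin, was lower (−1.65 ± 0.14). The list's hourly medians were 0.85, 1.18, −0.10 and 0.07. Hypoxia genes gave 2 higher, Kdm3a (1.83 ± 0.23) and Ndrg1 (1.35 ± 0.28, adjusted p 0.0506 without 24 h), and 2 lower of 11, Vegfa (−2.46 ± 0.33) and Ddit4 (−1.75 ± 0.25). Glycolysis genes gave 4 higher and 2 lower of 18, among them aldolase A, Aldoa, lower (−1.02 ± 0.13), and Pfkm, a phosphofructokinase, higher by 0.92 ± 0.11. Tpi1, Gapdh and Slc2a3, the other 3 that were higher, lie on chromosome 6. Of 9 DNA methylation genes Tet3 (1.35 ± 0.12) and Dnmt1 (0.52 ± 0.09) were higher and Tdg (−0.57 ± 0.11) lower. In the interferon, hypoxia, glycolysis and DNA methylation lists alike, the share called in either direction was near the 33.2% of all genes.

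Whether the difference widened or narrowed with time was tested as a slope on log2(hour). In limma 0 of 16150 genes were called (0%), with 2112 at an unadjusted p below 0.05 and a smallest adjusted p of 0.0958. The fit had 2 residual degrees of freedom, and fewer with an hour left out, and the count was unstable. Without the 24 h pair 1679 genes were called, without 48 h 2858, without 72 h 0 and without 96 h 17. In these counts the hour left out and the fewer degrees of freedom cannot be told apart. The steepest slopes upward, given as a description, were in Hoxa3 (3.19 ± 0.70 per doubling of the hour), Trp53i11 (2.90 ± 0.47), Lfng (2.66 ± 0.49), Hoxa5 (2.61 ± 0.68) and Col9a2 (2.43 ± 0.35). Hoxa3 read 1.7, 0.5, 51.7 and 148 in the knockout and 5.6, 1.8, 3 and 5 with Dox, so this HOX gene was high in the knockout at 72 and 96 h alone. Hoxa5 read 1.7, 1.9, 27.2 and 71 there and 5.6, 7, 4.5 and 4.5 with Dox. The steepest slopes downward were in Psmb8 (−2.83 ± 0.73), Jam2 (−2.82 ± 0.78), Gbp2b (−2.81 ± 0.44), Dmgdh (−2.74 ± 0.51) and Lrtm2 (−2.46 ± 0.54). Gbp2b read 24.1, 86, 66.7 and 107 in the knockout and 0, 21.1, 145 and 129 with Dox. Gbp2b and Psmb8, both induced by interferon, were listed at 0 with Dox at 24 h, and the knockout had Psmb8 at 23.6, 38.8, 12.6 and 37.1. The genes with a difference of at least 2-fold numbered 1260 higher and 2440 lower at 24 h, 1811 and 2329 at 48 h, 1178 and 1609 at 72 h, and 1530 and 1088 at 96 h, so more genes were higher than lower at 96 h only. Over the same hours the median of all genes went from −0.174 to 0.0256, and under median-ratio rescaling the median slope of all genes was 0 in place of 0.1, so this balance depends on the scaling. The libraries of both conditions were deepest at 72 and 96 h, and the part of depth was not tested.

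Levels on chromosomes 1 and 6 stood apart from those on the other autosomes and the X. The median difference was 0.246 over 749 genes of chromosome 6 and 0.151 over 933 of chromosome 1, while the other autosomes and the X lay between −0.17 and −0.017. On chromosome 6 it was 0.022 at 24 h, 0.115 at 48 h, 0.354 at 72 h and 0.467 at 96 h, and on chromosome 1 it was 0.066, 0.087, 0.169 and 0.264. The median of all genes rose too, from −0.174 at 24 h to 0.0256 at 96 h, and that of chromosome 2 from −0.126 to 0.1. A rise with hour as such is thus not particular to chromosomes 1 and 6. The rise on chromosome 6 was larger than those on chromosomes 1 and 2 and over all genes. The shares called higher were 27.6% on chromosome 6 and 27.7% on chromosome 1, against 9.39% to 18.7% on the other autosomes and the X. At 0 h the knockout minus no-Dox median was 0.074 on chromosome 6 and 0.102 on chromosome 1, and −0.201 to −0.042 on the other autosomes and the X. The Y, with 12 genes tested, had a median of 0.235 (−0.536 at 24 h, and −0.235 at 0 h), with 3 genes higher and 3 lower, and is not plotted. Leaving both chromosomes out, 4707 of 14468 genes were called, 1795 (12.4%) higher and 2912 lower. Isy1 lies on chromosome 6, and its own levels in the knockout were near those of the line without Dox. The listed genes called higher on chromosome 6 were Nanog, Gdf3, Evx1, Smyd1, Casp2, Ccnd2, Cdkn1b, Tet3, Samd9l, Tpi1, Gapdh, Slc2a3 and Kdm3a, and those on chromosome 1 included Prdm14, Nr5a2, Zfp281, Lefty1, Lefty2, Fn1 and Phlpp1. Isy1 and Peg10 on chromosome 6 and Gbx2 and Des on chromosome 1 were called lower. The part of the chromosome in any of these was not tested.

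**Figure D5:**
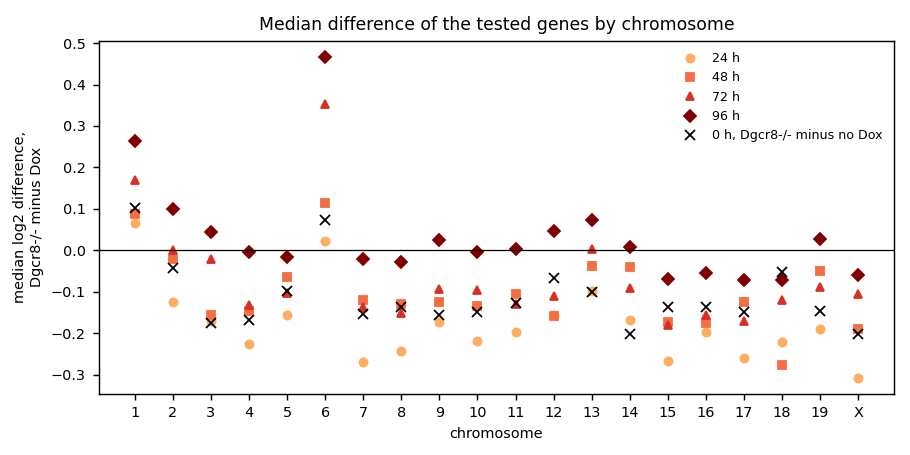
Median log2 difference (knockout minus Dox, y axis) of the tested genes of each chromosome (x axis) at 24, 48, 72 and 96 h, with the knockout minus no-Dox median at 0 h as crosses. Chromosomes 1 and 6 lie above 0 at every hour, and chromosome 6 reaches 0.467 at 96 h.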

How the data were processed

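PolyA RNA of 8 EpiLC libraries (4 knockout, 4 with Dox) was compared, with 5 libraries of KH2-ISY1 without Dox and the knockout at 0 h as reference levels. The deposited values are a signal per gene, made by the authors: read counts divided by 1 factor per library. The spacing of low values shows this plainly only where low values were whole reads (given below). For the other libraries it is assumed. Bowtie and the builds GRCm38 and mm9 are named per the submitters' processing notes, with no roles, and the counter is not given in the sources used here. The table has 16346 lines, of which 1 without a name (at most 0.00555% of a library) was left out, and 10 columns not used here.

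From these values log2(value + 1) was taken for genes whose mean in the 8 libraries was 1 or more. Knockout and Dox were compared in limma 3.58.1 (R 4.3.3) with hour as a block, intensity trend and Benjamini-Hochberg adjustment over all genes. The hour trend was fitted in limma on the 4 paired differences. Deviations of same-hour libraries correlated at 0.62, 0.24, 0.46 and 0.62 (24, 48, 72 and 96 h), and hours are labelled times, so they pair the libraries, though 2 knockout libraries correlated more with the Dox library of a neighbouring hour (48 h with 24 h, 0.36, and 72 h with 96 h, 0.49). On simulated data the first fit called 97 of 100 genes changed 2-fold and 100 of 100 changed 4-fold among 16129, with 11 false calls. The trend fit called 88 of 100 genes of slope 1 and 100 of 100 of slope 2, with 15 false calls. Simulated libraries had independent noise, and a changed gene kept its fold or slope over the hours. These counts thus check the fits and do not give power or error on the real libraries, where many differences turn with hour. Low values were whole reads (within 0.1 read) for 26.3% (knockout at 96 h) to 88.3% (Dox at 96 h) of low values in the deeper libraries. They were so for 100% of low values in 7 libraries. Those without Dox at 0 and 72 h stand alone at their hour and add nothing to a fit blocked by hour, and on the other 5 edgeR 4.0.16 called 5031 genes. Counting intervals are exact, at 95%, for sampling of reads only, with reads rounded from the values. Alternatives tried were the pseudocount, the filter, the scaling, the block, the set of libraries, the test and each hour left out.

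Named were Isy1, Dgcr8, the 12 largest differences in each direction among called genes of the same sign at 4 hours and a mean of at least 10 in the higher group (no Gm, Rik or date-like symbols), all listed naive genes and miR-290 and miR-302 targets, up to 4 called members of each other list by size with others where the list needed them, and the 5 steepest slopes in each direction. Some list members are counted but not reported here by name. Genes and lists were chosen with earlier results of these data known. Nothing says that libraries come from separate cultures, so the p-values measure only the spread between these libraries over hours.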

Additional observations from a re-analysis of the deposited data

Results flagged for a closer look

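For 8 of the 143 genes looked at (5.59%), the difference between knockout and Dox at 1 hour lay far from those at the other 3 hours, by Dixon's test on the 4 hourly differences. Chance alone gives about 1 in 20 such groups. Of these, 4 stood apart at 24 h and 4 at 48 h. At 24 h the log2 difference was 0.47 for Nnat (2.66 to 2.74 at the other hours), 1.83 for Olfml3 (3.82 to 4.05) and 0.57 for Tgfbr1 (0.79 to 0.84). Tfap2c had 3.78 at 24 h, where Dox was listed at 0, and 0.80 to 1.12 later. At 48 h the difference was 7.15 for Lefty1 (1.74 to 2.65 at the other hours), 5.36 for Nlrp12 (3.69 to 3.95), 5.52 for Trh (4.53 to 4.65) and 0.93 for Zfp281 (0.64 to 0.67). In the Dox library at 48 h Lefty1 read 34.2, Nlrp12 73.7 and Trh 47.4, the lowest Dox value of each.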

How the results depend on the processing

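The counts of called genes kept within 1.5 times of 5358 under pseudocounts of 0.5 (5328) and 5 (5353), no filter (5337), a mean of at least 10 (4976), no intensity trend (4319), both rescalings (5385 and 5396) and 12 libraries in the fit (6238). With the pairing by hour left out (no replicate block), 3185 were called, 1325 higher and 1860 lower, and 33 genes named in the text lost their call (adjusted p = 0.0562 to 0.694). Among these were Nanog (0.342), Tdh (0.243), Nnat (0.12), Lin28b (0.108), Lefty1 (0.123), Fgf5 (0.407), Prdm14, Nr5a2, Sox2 and Tcl1. Leaving out 1 hour gave 3030 to 4581 called, 1407 to 1965 higher and 1623 to 2616 lower, of which 2980 to 4093 were also called with all hours. The hour trend, with 0 called, gave 0 to 2858. On 5 libraries with recovered whole reads edgeR called 5031 (2680 higher), 3215 of them also called by limma. That fit has 1 knockout library, assumed to vary like the others, and 18 named genes lost their call in it (adjusted p = 0.0518 to 0.994), among them Dgcr8 (−0.54, 0.171), Nanog, Eomes, Fos and Tcl1. Without the intensity trend 19 did (0.0505 to 0.0841), among them Prdm14, Nr5a2, Fgf5, Lefty2 and Gata3. Median-ratio and TMM-like rescaling cost Tagln, Cnn2, Thbs1, Xab2 and Uty their call (0.0512 to 0.0946). The 12-library fit lost 11 named calls (0.07 to 0.265), among them Nanog, Nr5a2, Sox2 and Tcl1. The signs that reversed belong to genes not called in the report. Dppa5a turned to 0.087 under median-ratio rescaling and 0.092 under TMM-like rescaling. In edgeR the values were 0.15 for Dppa5a, −0.62 for Tfcp2l1, 0.68 for Zfp42, 0.057 for Esrrb, 1.79 for Jam2, 1.15 for Nr0b1, 0.17 for Cdkn1a, −0.20 for Akt1, 3.30 for Dkk1 and −0.34 for Nr2f2. The knockout library of that fit is the one at 48 h, so its values rest on the knockout at that hour only. At 48 h the log2 difference used elsewhere was −0.94 for Tfcp2l1, 0.35 for Zfp42, −0.28 for Esrrb, 1.53 for Jam2 and 0.71 for Nr0b1. Of these 10 genes all but Esrrb had the sign of the edgeR value at 48 h. Leaving out 1 hour, the range was −0.044 to 0.048 for Dppa5a, −0.29 to 0.54 for Tfcp2l1, −0.94 to 0.11 for Klf4, −0.42 to 0.055 for Nr0b1, −0.083 to 0.25 for Tet2, −0.24 to 0.023 for Cdkn1a, −0.14 to 0.12 for Akt1 and −0.64 to 0.24 for Rhoc. The cause of these changes was not tested, beyond the fewer libraries and hours in some of the fits. Values near 1 read (0.142 to 0.934 units) are limited by depth.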
